A study of Mus musculus with 16 samples.

Results

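The MHC class II genes and their coactivator gene were followed in primary mammary tumors of mice with and without a gene trap in *Resf1*. The members are the 7 genes *H2-Aa*, *H2-Ab1*, *H2-Eb1*, *H2-DMa*, *H2-DMb1*, *Cd74* and *Ciita*, chosen by name. All 7 were found among the 23609 genes of the table, and all 7 were among the 21034 genes with a mean normalized count of at least 10 that were tested. None of the 7 was called different between the genotypes. Across tumors, the classical chain genes *H2-Ab1* and *H2-Eb1* kept a nearly fixed ratio, *Cd74* kept a nearly fixed ratio to *H2-Ab1* in every tumor but 1, and the *Ciita* level was only weakly related to the levels of the other members over all 10 tumors.

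MHC class II molecules are pairs of an alpha and a beta chain that present peptides from endocytosed proteins to CD4 T cells. The chains are assembled in the endoplasmic reticulum with the invariant chain, which *Cd74* encodes and which fills the groove until proteases trim it, and H2-DM then exchanges the last invariant chain fragment for peptide. Dendritic cells, macrophages and B cells make class II molecules constitutively, and interferon gamma can induce them in many other cells, epithelial and tumor cells included. *Ciita* encodes the coactivator CIITA, which does not bind DNA itself and acts through the RFX, CREB and NF-Y factors bound at the X and Y boxes of class II promoters.

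The tumors came from F1 animals of FVB/MMTV-PyMT mice and C57BL/6-Et(EGFP/Cre)16255Rdav mice, so that every animal carried the polyoma middle T transgene driven by the MMTV promoter. Animals of the genetrap group were *Resf1* +/-, with a lentiviral gene trap in the first exon of *Resf1* that fuses EGFP and Cre, and animals of the wildtype group were littermates without it. The gene trap is a single allele present in all cells, not a mammary deletion, and the age at harvest is not given in the sources used here. Total RNA of whole tumors was sequenced, and of 16 tumors described (8 per genotype) the values of 5 wildtype and 5 genetrap tumors were used. Because whole tumors were measured, fewer class II-positive cells and less class II RNA per cell cannot be told apart.

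The values are estimated counts that the authors had normalized between tumors, called normalized counts here, and the column totals ranged from 31995078 to 42153593. *Resf1*, the trapped gene, had normalized counts of 4215, 4397, 3881, 4487 and 3517 in wildtype tumors 1 to 5 and of 4029, 3066, 3686, 3392 and 3409 in genetrap tumors 1 to 5. The groups overlapped, and the log2 fold change (genetrap minus wildtype, here and throughout) was -0.22 (95% interval -0.42 to -0.02, unadjusted p = 0.0313, adjusted p = 0.99972 by limma, exact permutation p = 0.0635, n = 5 per group). The unadjusted p was at least 0.05 in 9 of 19 alternative settings. Genetrap tumor 2 stood apart, with 863 genes lower by over 2-fold than in any of the other 9 tumors, where the like number was 8 to 40. Genetrap tumor 3 had the highest summed B cell markers, at 716 against 43.4 to 248 in the other 9 tumors. The epithelial marker sum ranged from 73483 to 100077 and the macrophage marker sum from 13198 to 18936. The B cell sum rests on the 4 measured markers *Cd79b*, *Cd22*, *Fcer2a* and *Cr2*.

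Levels were ranked between genes after division by exon length, as normalized counts per kilobase. This length joins all annotated exons of a gene, so it can exceed that of a single transcript, and the order depends on it. Before division, *H2-Aa* had the higher mean, at 3746 against 2991 for *H2-Ab1*, with exon lengths of 3798 and 2568 bases. *Cd74* had the highest level of the 7 members, with a median of 4272 per kilobase over the 10 tumors and a range of 2924 to 5761. The classical chains followed, with medians per kilobase of 1099 for *H2-Ab1*, 950.3 for *H2-Aa* and 664 for *H2-Eb1*. The ranges over the tumors of *H2-Ab1* (848 to 1432 per kilobase) and *H2-Aa* (686 to 1243) overlapped, as did those of *H2-Aa* and *H2-Eb1* (529 to 909). The peptide exchange genes were lower, at medians of 233 per kilobase for *H2-DMb1* and 78.2 for *H2-DMa*. *Ciita* was lowest, at 57.6 per kilobase (range 42.7 to 77.4), and its range overlapped that of *H2-DMa* (65.6 to 106). For scale, the pan-leukocyte gene *Ptprc* had a median of 73.0 per kilobase, close to *H2-DMa* and *Ciita*.

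The first comparison asked whether the gene trap tumors differed from wildtype tumors in class II RNA. Over the whole table, limma called 0 genes at an adjusted p under 0.05 (0% of those tested). At an unadjusted p under 0.05, 278 genes (1.32%) were higher and 201 (0.956%) lower in genetrap tumors, and 0 of the 7 members were among them in either direction. The fold change was below 0 for 6 members and above 0 for *Ciita*, and of all 21034 tested genes 10221 were below 0. The median over the 7 was -0.09 on the log2 scale, against 0.005 over all tested genes, and all 7 adjusted p-values were 0.99972.

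For the invariant chain gene *Cd74*, normalized counts in wildtype tumors 1 to 5 were 6968, 6615, 9451, 7527 and 8927. In genetrap tumors 1 to 5 they were 9673, 4909, 7376, 5732 and 6343. The groups overlapped, since genetrap tumor 1 was the highest of all 10 and genetrap tumors 2, 4 and 5 lay below the lowest wildtype tumor. The means were 7898 ± 1237 and 6807 ± 1838 (SD, n = 5 each), for a log2 fold change of -0.24 (95% interval -0.60 to 0.12, SE 0.17, unadjusted p = 0.176 by limma, exact permutation p = 0.262). Without genetrap tumor 2, in which *Cd74* was lowest, the log2 fold change was -0.13.

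The classical chain genes showed smaller differences. *H2-Aa*, the alpha chain of the I-A molecule, had normalized counts of 3679.8, 3115, 4565, 3539 and 4625 in wildtype tumors 1 to 5 and of 4720.05, 3811, 3520.2, 2606 and 3283 in genetrap tumors 1 to 5. The highest and the lowest of the 10 tumors were both genetrap tumors. The log2 fold change was -0.13 (95% interval -0.47 to 0.20, unadjusted p = 0.407 by limma).

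*H2-Ab1*, which encodes the beta chain that pairs with H2-Aa, had normalized counts of 2659.8, 2633, 3678, 2929.5 and 3501 in wildtype tumors and of 3484, 3595, 2713, 2177 and 2539.8 in genetrap tumors, in the order of their replicate numbers. No genetrap tumor exceeded the wildtype range and 2 lay below it. The log2 fold change was -0.10 (95% interval -0.42 to 0.22, unadjusted p = 0.519 by limma). *H2-Eb1*, the beta chain of the I-E molecule, had 1168, 1244, 1767, 1338 and 1587 in wildtype tumors and 1631, 1659, 1227, 1029 and 1216 in genetrap tumors. Its order over the tumors was nearly that of *H2-Ab1*, and its log2 fold change was -0.08 (95% interval -0.41 to 0.25, unadjusted p = 0.614 by limma).

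H2-DM is the heterodimer that catalyzes peptide exchange. *H2-DMa*, its alpha chain, had normalized counts of 262, 226, 366, 251 and 311 in wildtype tumors 1 to 5 and of 309, 278, 298, 236 and 246 in genetrap tumors 1 to 5. All 5 genetrap tumors lay within the wildtype range, and the log2 fold change was -0.04 (95% interval -0.35 to 0.28, unadjusted p = 0.805 by limma). *H2-DMa* overlaps *Brd2* on the other strand, and the strand setting of the counting is not given in the sources used here. *Brd2* had normalized counts of 5523 to 7791.

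*H2-DMb1*, one of the H2-DM beta chain genes, had 368, 362, 454, 418 and 403 in wildtype tumors and 379, 407, 376, 313 and 411 in genetrap tumors. Of the 7 members it varied least over the 10 tumors, with a coefficient of variation of 9.84% against 15.5% to 21.6% in the other 6. The log2 fold change was -0.09 (95% interval -0.32 to 0.14, unadjusted p = 0.414 by limma). Reads shared with the similar gene *H2-DMb2* may have been divided between them, so both values are uncertain.

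*Ciita* had normalized counts of 484, 489.8, 548, 407 and 561 in wildtype tumors 1 to 5 and of 569.6, 574, 738, 552 and 409 in genetrap tumors 1 to 5. Of the genetrap tumors, 3 exceeded the highest wildtype tumor, although tumors 1 and 2 did so narrowly, and none lay below the lowest. The means were 498 ± 61.1 and 568 ± 117 (SD, n = 5 each), for a log2 fold change of 0.17 (95% interval -0.14 to 0.49, SE 0.15, unadjusted p = 0.253 by limma, exact permutation p = 0.286). *Ciita* was highest in genetrap tumor 3, the tumor with the highest B cell marker sum, and the log2 fold change without that tumor was 0.07. The part of B cells in the *Ciita* value was not tested. *Ciita* overlaps *Dexi* on the other strand, with normalized counts of 474 to 664 for *Dexi*.

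**Figure D1:**
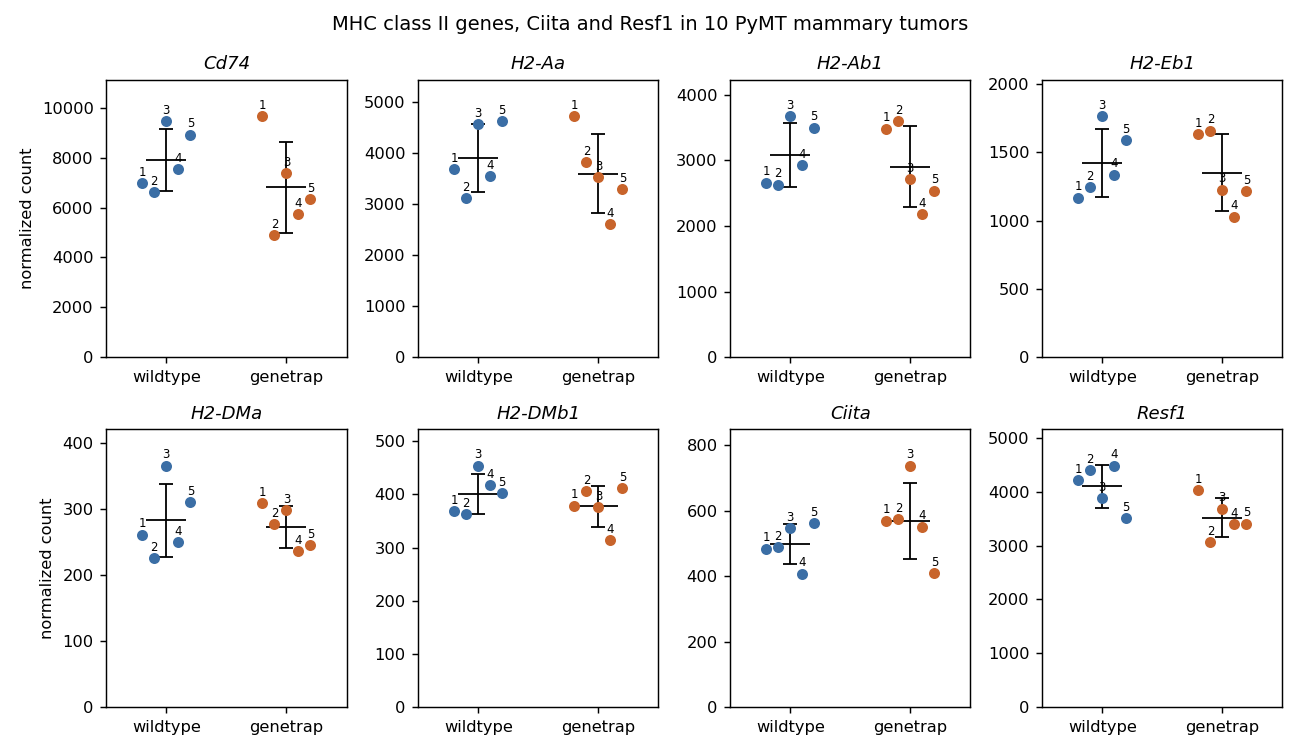
Normalized counts (vertical axes, from 0) of the 7 members and of *Resf1* in 5 wildtype (blue) and 5 genetrap (orange) tumors, with the replicate number beside each point and the mean and SD in black. The groups overlapped in every panel, and *Cd74* ranged from 4909 to 9673, both in genetrap tumors.

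**Figure D2:**
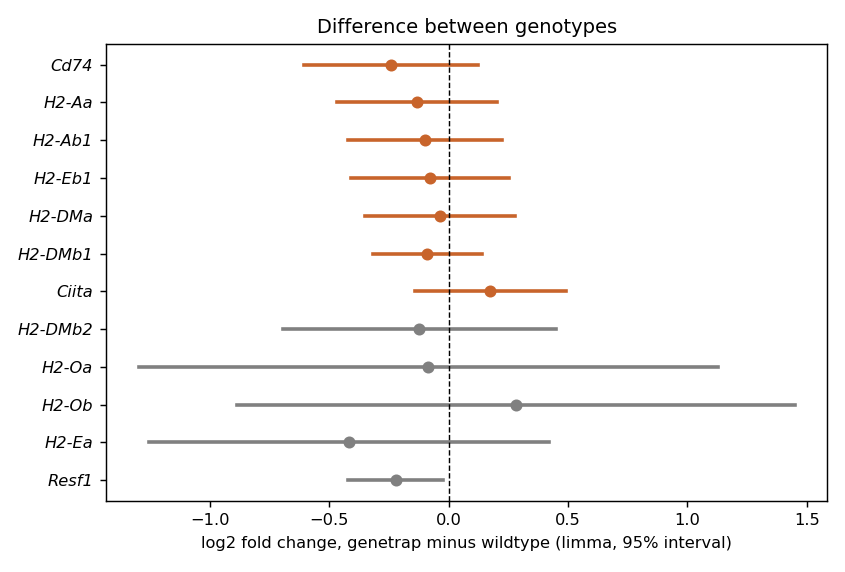
Log2 fold change between genotypes from limma (horizontal axis, points) with its 95% interval (lines) for the 7 members (orange) and for other class II genes and *Resf1* (grey). The intervals of all 7 members include 0, and that of *Resf1* runs from -0.42 to -0.02.

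Class II genes are made mainly by leukocytes, so each member was also expressed relative to *Ptprc* within each tumor, as a difference of log2 values. *Ptprc* itself had means of 1507 ± 386 in wildtype and 1579 ± 707 in genetrap tumors (SD, n = 5 each; log2 fold change 0.01), and its highest value, in genetrap tumor 3, was 2774. Relative to *Ptprc*, the genetrap minus wildtype difference was -0.25 for *Cd74* (exact permutation p = 0.397), -0.14 for *H2-Aa* (p = 0.651), -0.11 for *H2-Ab1* (p = 0.738) and 0.17 for *Ciita* (p = 0.484). The smallest p that 5 against 5 tumors allow in this exact test is 0.00794. Genetrap tumor 3 had the lowest class II levels relative to *Ptprc*, with *H2-Ab1* at -0.03 against 0.41 to 1.59 in the other 9 tumors. Without this tumor the differences of *H2-Aa*, *H2-Ab1*, *H2-Eb1*, *H2-DMa* and *H2-DMb1* changed sign, to between 0.09 and 0.17, that of *Cd74* was -0.06 and that of *Ciita* was 0.29.

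The other genes of the pathway also passed no test at an adjusted p under 0.05. Of the 7 genes of the RFX, NF-Y and CREB factors, which occupy class II promoters, 0 had an unadjusted p under 0.05 and the log2 fold changes ran from -0.03 to 0.07. *Rfx5*, a DNA-binding subunit of RFX, had means of 976 ± 102 in wildtype and 957 ± 48.1 in genetrap tumors (SD, n = 5 each). Of 10 measured genes between interferon gamma and *Ciita*, 4 had fold changes above 0 and 6 below. *Ifng* itself was not among the genes of the table, and *Irf1*, a transcription factor that acts on the *Ciita* promoter, had means of 2109 ± 248 and 2110.5 ± 245 (SD, n = 5 each).

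Of the *Ciita* repressors and silencers *Prdm1*, *Ezh2*, *Setdb1* and *Dnmt1*, 2 were above 0 and 2 below, with log2 fold changes from -0.24 for *Prdm1* to 0.10 for *Setdb1*, a histone H3 lysine methyltransferase. The 9 genes of endosomal processing all had fold changes below 0, with a median of -0.08 on the log2 scale, and 0 of 9 had an unadjusted p under 0.05. For comparison, 10221 of all 21034 tested genes were below 0. The genes of a list were measured in the same tumors, so their directions are not separate results. *Ctsb*, an endosomal protease, was at -0.14 (unadjusted p = 0.0968 by limma) and *Ctss*, the protease that trims the invariant chain, at -0.08 (unadjusted p = 0.476). *Cd83*, which stabilizes class II at the surface, had the lowest value of this list, at -0.31, with normalized counts of 98.5 to 192 in wildtype and 92.4 to 158 in genetrap tumors. Of the 9 MHC class I genes, which present cytosolic peptides, 7 were below 0 and 0 had an unadjusted p under 0.05. *Nlrc5*, the class I counterpart of *Ciita*, was at -0.23 (unadjusted p = 0.189 by limma) and *B2m*, the class I light chain, at -0.20 (unadjusted p = 0.0938). Of the 5 costimulation genes, 3 were below 0 and 2 above, again with 0 under 0.05.

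The second description is how the members varied together over the 10 tumors, as Pearson's r of log2 values. The 10 points share the normalization of the table, and 2-sided permutation p-values were adjusted over the 21 pairs of members. *H2-Ab1* and *H2-Eb1* moved together most closely, with r = 0.987 (permutation p = 2e-05, adjusted p = 0.00042) and Spearman's rho = 0.927 (permutation p = 0.00037, adjusted p = 0.00777). Among the 21033 other tested genes, *H2-Eb1* was the gene most correlated with *H2-Ab1*, and the reverse also held. Their ratio of normalized counts, *H2-Eb1* over *H2-Ab1*, lay between 0.439 and 0.48 in all 10 tumors, a coefficient of variation of 2.85%. The correlation was 0.982 within wildtype and 0.995 within genetrap tumors, and 0.982 without the 2 tumors farthest from the median of *H2-Ab1*.

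*H2-Aa* followed its partner chain *H2-Ab1* with r = 0.911 (permutation p = 0.00031, adjusted p = 0.00326) and rho = 0.842 (permutation p = 0.00376, adjusted p = 0.0197), and r was 0.851 without the 2 farthest tumors. *H2-DMa* correlated with *H2-Aa* at r = 0.846 (permutation p = 0.00201, adjusted p = 0.0106), with rho = 0.867 (permutation p = 0.00226, adjusted p = 0.0197) and r = 0.877 without the 2 farthest tumors. *H2-DMb1*, although it encodes the partner of H2-DMa, correlated with *H2-DMa* at r = 0.588 (permutation p = 0.073, adjusted p = 0.128) and rho = 0.491 (permutation p = 0.155, adjusted p = 0.251). That pair had r = 0.292 without the 2 farthest tumors. The median r over the 15 pairs without *Ciita* was 0.726.

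*Cd74* departed from its partners in 1 tumor. The ratio of normalized counts of *Cd74* to *H2-Ab1* was 2.62, 2.51, 2.57, 2.57 and 2.55 in wildtype tumors 1 to 5 and 2.78, 1.37, 2.72, 2.63 and 2.50 in genetrap tumors 1 to 5. Apart from genetrap tumor 2 the ratio therefore varied little, with a coefficient of variation of 3.56% over 9 tumors against 16.2% over all 10. In genetrap tumor 2, *Cd74* was the lowest of the 10 tumors while *H2-Ab1*, at 3595, was the second highest. The correlation of *Cd74* with *H2-Ab1* was r = 0.477 over 10 tumors (permutation p = 0.164, adjusted p = 0.235) and rho = 0.515 (permutation p = 0.135, adjusted p = 0.251). It was 0.189 without the 2 tumors farthest from the median of *H2-Ab1*, and 0.982 without genetrap tumor 2. Within the 5 wildtype tumors r was 0.995. Genetrap tumor 2 also stood apart in 863 other low genes, and the part of this separation in its *Cd74* value was not tested.

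**Figure D3:**
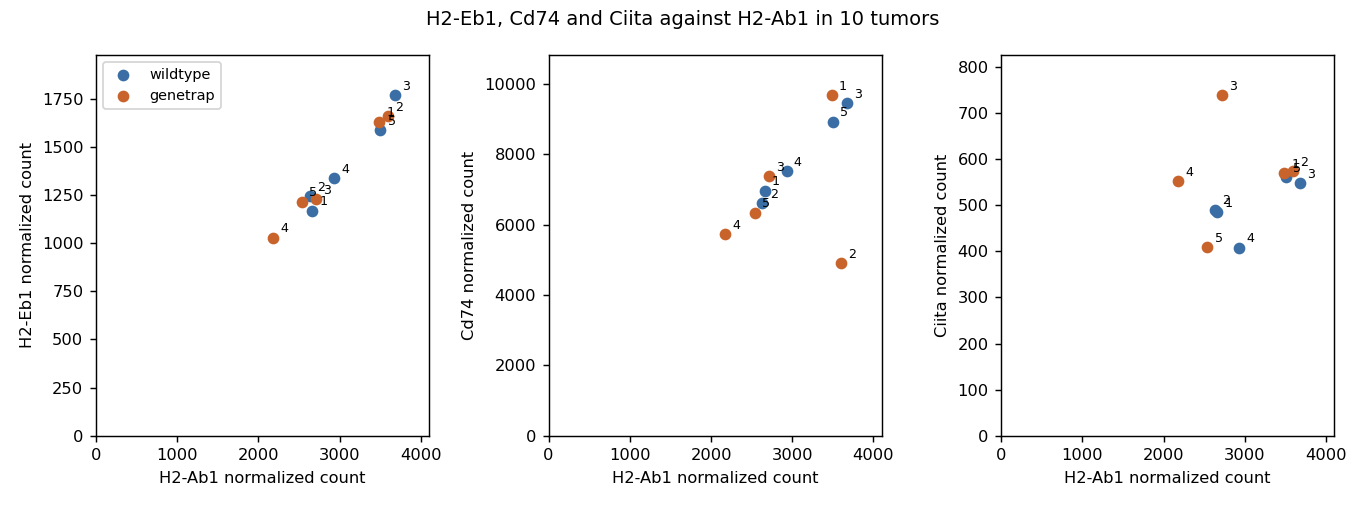
Normalized counts of *H2-Eb1*, *Cd74* and *Ciita* (vertical axes, from 0) against those of *H2-Ab1* (horizontal axis, from 0) in wildtype (blue) and genetrap (orange) tumors, with replicate numbers. *H2-Eb1* lies along a line, *Cd74* does so except for genetrap tumor 2 at 4909, and *Ciita* is scattered.

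*Ciita*, the gene of the shared coactivator, was related weakly to its targets over all 10 tumors. Its r with the other 6 members ran from -0.21 for *H2-DMb1* to 0.51 for *H2-DMa*, with a median of 0.21, and 0 of these 6 pairs had an adjusted p under 0.05. Within the 5 wildtype tumors r was 0.60 to 0.69 for 5 of the 6 members and 0.17 for *H2-DMb1*, and within the 5 genetrap tumors it ran from -0.25 to 0.63. The *H2-DMa* pair had rho = 0.479 (permutation p = 0.166 and adjusted p = 0.251, against p = 0.136 and adjusted p = 0.22 for r). Genetrap tumor 3 had the highest *Ciita* value, 738, with *H2-Ab1* at 2713, and the median r without this tumor was 0.42. By rank among the 21033 other tested genes, *Ptprc* (r = 0.625) was the 443rd most correlated with *Ciita* and *H2-Ab1* the 4975th. The number of genes compared with *Ciita* upstream or as DNA-binding partners was 21, and 0 had an adjusted p under 0.05. *Irf8*, a factor of myeloid and B cells, had the highest r among them, at 0.713 (permutation p = 0.0247, adjusted p = 0.519) with rho = 0.491 (permutation p = 0.156, adjusted p = 0.644), and r was 0.353 without genetrap tumor 3.

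**Figure D4:**
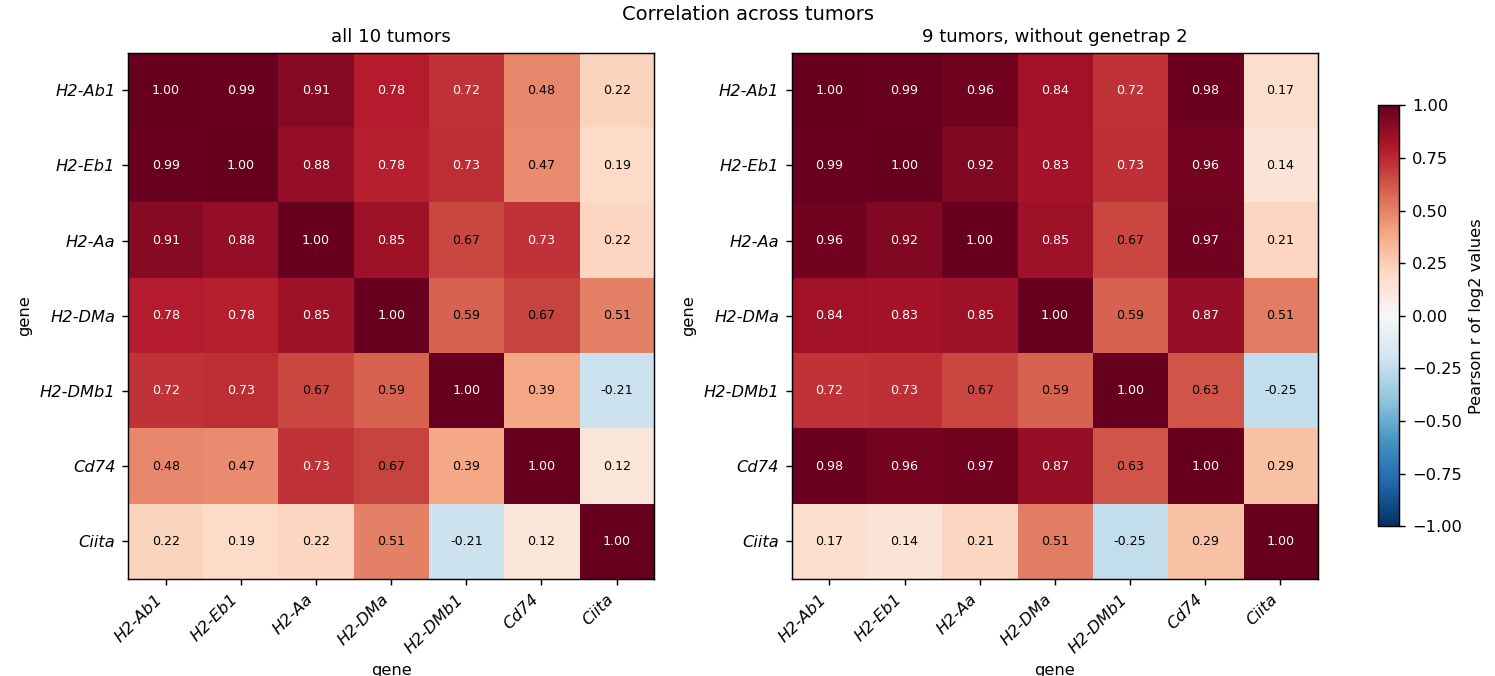
Pearson's r of log2 normalized counts between each pair of the 7 members (both axes list genes, the color scale runs from -1 to 1), over all 10 tumors on the left and over 9 tumors without genetrap tumor 2 on the right. The *Cd74* and *H2-Ab1* cell goes from 0.48 to 0.98, and the *Ciita* row stays between -0.25 and 0.51.

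The genes whose pattern over the 10 tumors was most like that of the 6 class II members were ranked by mean r, as a description. The highest were *Rnase4* (mean r = 0.809), *C1qb* (0.808), *Pth1r* (0.805), *Pltp* (0.802) and *H2-Q10* (0.802), followed by *Cd300ld*, *Man2b1*, *Cd200r4*, *Fcgr3* and *Acer3* (0.783 to 0.799). *C1qb*, a complement component made by macrophages, and *Fcgr3*, an Fc receptor of myeloid and NK cells, are among them. None of the 10 had an unadjusted p under 0.05 between the genotypes. The genes most like *Ciita* were others: *Was*, an actin regulator of blood cells, at r = 0.948, then *Gata6* (0.883), *Zfp128* (0.875), *Grap* (0.872) and *Ifi214* (0.871).

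Summed marker lists were set beside the members, with adjustment over the 99 relations between 9 lists and 11 genes (the 7 members and 4 further class II genes). The macrophage sum went with *H2-Eb1* at r = 0.928 (permutation p = 0.00034, adjusted p = 0.0109) and rho = 0.915 (permutation p = 0.00052, adjusted p = 0.0515). It went with *H2-Ab1* at r = 0.924 (permutation p = 0.00044, adjusted p = 0.0109) and rho = 0.867 (permutation p = 0.00216, adjusted p = 0.0679). Without the 2 farthest tumors these values were 0.94 and 0.913. Over all 10 tumors *H2-DMa* was closest to the dendritic cell sum, at r = 0.836 (permutation p = 0.00297, adjusted p = 0.0266) with rho = 0.818 (permutation p = 0.00583, adjusted p = 0.0721). That r was 0.894 without the 2 tumors farthest in this sum, wildtype tumor 5 and genetrap tumor 3. This order depended on the tumors included. Its r with the B cell sum was 0.367 over all 10 tumors and 0.969 without genetrap tumor 3 and wildtype tumor 1. With the T cell sum these r were 0.442 and 0.904. *Cd74* had r = 0.48 with the macrophage sum over 10 tumors (permutation p = 0.159, adjusted p = 0.347) and rho = 0.491 (permutation p = 0.156, adjusted p = 0.303). Without genetrap tumor 2 that r was 0.881. Over all 10 tumors *Cd74* had higher r with the dendritic cell sum (0.694, permutation p = 0.0294, adjusted p = 0.121) and the endothelial sum (0.652, permutation p = 0.0425, adjusted p = 0.149). Without genetrap tumor 2 these r were 0.716 and 0.457. *Ciita* had its highest r with the dendritic cell sum (0.721, permutation p = 0.0157, adjusted p = 0.074) and the leukocyte sum (0.712, permutation p = 0.0233, adjusted p = 0.105), against 0.121 with the macrophage sum.

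Class II genes outside the 7 members showed another pattern. *H2-Oa* and *H2-Ob* encode H2-O, a modulator of H2-DM found mostly in B cells, and *H2-DMb2* and *H2-Eb2* are further beta chain genes. *H2-Ob* had normalized counts of 76, 20.6, 36.4, 29.3 and 42.6 in wildtype tumors 1 to 5 and of 46.2, 21.9, 201, 31.4 and 29.9 in genetrap tumors 1 to 5. *H2-Oa* was 54.5 in genetrap tumor 3 and 3.84 to 17.8 in the other 9, and *H2-DMb2* was 228 there and 75.3 to 143 in the others. *H2-Eb2*, with a mean under 10 and so not tested, was 40.2 there and 0.635 to 15.2 in the others. The second highest *H2-Ob*, *H2-Oa* and *H2-Eb2* values were in wildtype tumor 1, the tumor with the second highest B cell marker sum (248). *H2-Ea*, which encodes the alpha chain for H2-Eb1 and which C57BL/6 mice do not transcribe because of a promoter deletion, had only 5.63 to 24.9. The log2 fold changes of the 4 tested genes were -0.42 for *H2-Ea*, -0.12 for *H2-DMb2*, -0.09 for *H2-Oa* and 0.28 for *H2-Ob*, each with an adjusted p of 0.99972 by limma. Without genetrap tumor 3 they were -0.64, -0.38, -0.67 and -0.25 in the same order, so the direction of *H2-Ob* rested on that tumor.

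The B cell marker sum went with *H2-Ob* at r = 0.951 (permutation p = 0.00061, adjusted p = 0.0119) and rho = 0.806 (permutation p = 0.00753, adjusted p = 0.0745). Without the 2 tumors highest in B cell markers, genetrap tumor 3 and wildtype tumor 1, that r was 0.598, so the relation rested largely on them. The T cell marker sum went with *H2-Ob* about as closely, at r = 0.930 (permutation p = 0.00039, adjusted p = 0.0109) and rho = 0.770 (permutation p = 0.013, adjusted p = 0.111), and r was 0.646 without the same 2 tumors. For *H2-DMb2* r was 0.894 with the T cell sum and 0.861 with the B cell sum, and for *H2-Eb2* it was 0.891 and 0.861. The epithelial marker sum went the other way with *H2-Ob*, at r = -0.772 (permutation p = 0.00253, adjusted p = 0.0266) and rho = -0.830 (permutation p = 0.00445, adjusted p = 0.0679). With the epithelial sum, r was -0.826 for *H2-Eb2*, -0.628 for *H2-DMb2* and -0.446 for *H2-Oa*. Without the same 2 tumors these r were -0.743 for *H2-Ob*, -0.719 for *H2-Eb2*, -0.421 for *H2-DMb2* and 0.412 for *H2-Oa*. For *H2-Oa* and the B cell sum, r was 0.864 (permutation p = 0.00787, adjusted p = 0.0458) with rho = 0.539 (permutation p = 0.114, adjusted p = 0.257), and it was -0.13 without those tumors. *H2-Ab1* had r = -0.005 with the B cell sum (permutation p = 0.989, adjusted p = 0.999) and rho = 0.467 (permutation p = 0.178, adjusted p = 0.324), and genetrap tumor 3 was near the middle of its range. Without the same 2 tumors r was 0.897 for *H2-Ab1*. The summed T cell markers were also highest in genetrap tumor 3, at 616 against 156 to 439 in the others, as were the 3 measured lymph node stroma markers, at 574 against 25.1 to 567. The part of lymphoid tissue in these values was not tested.

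**Figure D5:**
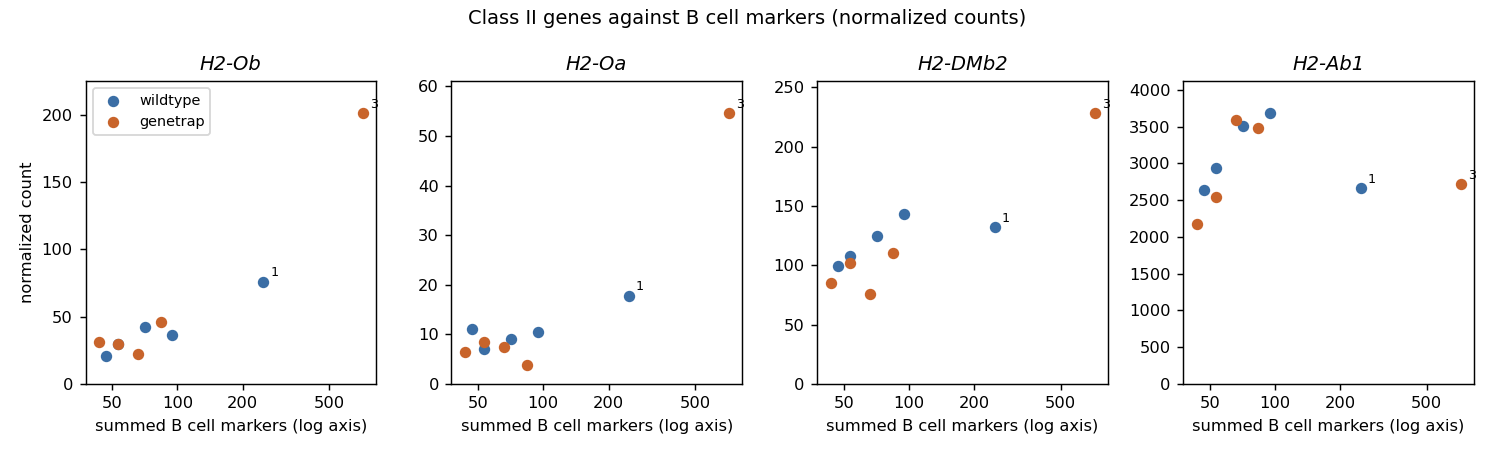
Normalized counts (vertical axes, from 0) of *H2-Ob*, *H2-Oa*, *H2-DMb2* and *H2-Ab1* against the summed normalized counts of 4 B cell markers (horizontal log axis) in wildtype (blue) and genetrap (orange) tumors. Genetrap tumor 3 (716) and wildtype tumor 1 (248) carry the number of their replicate, and genetrap tumor 3 is highest for the first 3 genes but not for *H2-Ab1*.

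Class II genes share promoter elements, so RefSeq promoter windows (250 bases before to 50 after the start, GRCm38.p6) were searched on both strands. Windows were found for 8 class II genes, all on chromosome 17, among them the members *H2-Aa*, *H2-Eb1*, *H2-DMa* and *H2-DMb1*. The members *H2-Ab1*, *Cd74* and *Ciita* had no window, so the promoters of *H2-Ab1* and *H2-Eb1* could not be compared. The part of shared elements in the joint movement of the members was not tested. The core of the Y box, ATTGG (the site of NF-Y), occurred in the windows of 8 of the 8 genes and in 37.4% of all 32851 windows. The longer TGATTGG, which contains it and was chosen after these sequences were seen, occurred for 7 of the 8 genes, all but *H2-DMa*, and in 7.82% of windows. An X box core, GNNACNGNT, starting 15 to 35 bases before a Y box on the same strand occurred for *H2-DMb1*, *H2-Eb1* and *H2-Eb2*, and in 0.615% of windows. The X box core at any position occurred for 6 of the 8 genes and in 34.5% of windows. Only these exact letters were searched, so a window without a match is not shown to lack an X box. The cyclic AMP response element TGACGTCA, a CREB site also chosen after the sequences were seen, occurred for *H2-Aa* alone of the 8 and in 1.79% of windows. The stretches that follow end 8 bases past the Y box and are shown for the members that hold TGATTGG and for *H2-DMb2* and *H2-Ob*, which were highest in genetrap tumor 3. *H2-Oa* and *H2-Eb2* were also highest in that tumor and hold TGATTGG, but their stretches are not shown. Of these 2, *H2-Eb2* has the X box core, 32 bases before the Y box, and *H2-Oa* does not. Capitals mark TGATTGG, the X box core and the cyclic AMP response element, on the coding strand of each gene.
*H2-Aa* (chr17:34287859-34287921, minus strand): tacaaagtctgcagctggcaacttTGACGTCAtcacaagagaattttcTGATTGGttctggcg
*H2-Eb1* (chr17:34305758-34305820, plus strand): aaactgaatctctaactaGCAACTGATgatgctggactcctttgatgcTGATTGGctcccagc
*H2-DMb1* (chr17:34153080-34153142, plus strand): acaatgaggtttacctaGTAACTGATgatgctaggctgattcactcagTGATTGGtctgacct
*H2-DMb2* (chr17:34145109-34145171, plus strand): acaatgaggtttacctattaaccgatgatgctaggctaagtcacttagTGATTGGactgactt
*H2-Ob* (chr17:34238798-34238860, plus strand): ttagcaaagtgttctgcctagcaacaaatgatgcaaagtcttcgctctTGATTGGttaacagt

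In these windows the Y box lay 50 bases before the start for *H2-Aa*, 61 for *H2-Eb1*, 63 for *H2-DMb1*, 92 for *H2-DMb2* and 59 for *H2-Ob*. *H2-DMb1* and *H2-DMb2*, whose stretches are similar, differed in their spread over the tumors, with a highest value 1.45 times the lowest for *H2-DMb1* and 3.03 times for *H2-DMb2* (1.90 times without genetrap tumor 3). Both spreads are uncertain, because reads shared by these similar genes may have been divided between them. A match describes these letters only, and binding was not measured in these data.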

How the data were processed

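RNA-seq values came from primary mammary tumors, 5 wildtype and 5 genetrap. The authors deposited estimated counts per gene, a signal already scaled between tumors by the median ratio method. The submitters' processing notes name Partek, STAR 2.7.8a, DESeq2 and the build mm39. The values hold 0 zeros and no common step, so depth is unknown and no interval that needs it is given. Of 16 value columns, 10 matched a tumor's label and 6, named by an animal's number, matched none and were not used.

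Symbols were found for 97.0% of gene IDs, and exon lengths (GENCODE mouse release 21) for 97.6% of tested IDs. A pseudocount of 1 was added before the log2 scale was taken, and limma (version 3.58.1, R 4.3.3) was fitted to genes with a mean of at least 10 (variance trend, Benjamini-Hochberg adjustment over 21034 genes). Single values were compared by exact 2-sided permutation over 252 arrangements, and correlations by 100000 permutations (scipy 1.17.1). The deposited labels do not say whether the tumors came from separate litters or batches. In tables simulated for 5 against 5 tumors, the adjusted p was under 0.05 for 0, 67, 130 and 179 of 200 genes changed by 1.2, 1.5, 2 and 4 fold.

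The members and gene lists were chosen with earlier results of these data known. Genes named are the members, *Resf1*, genes of the lists, list genes with an unadjusted p under 0.05, and the genes most correlated with the members. *Brd2* and *Dexi*, which overlap members, were named after their values were seen. Some results on single listed genes are not reported here. Alternatives covered pseudocount, filter, scaling, trend, weights, the replicate block and each tumor left out.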

Additional observations from a re-analysis of the deposited data

Results flagged for a closer look

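Values that lay far from the other 4 tumors of their group were sought in 56 groups of 5 tumors (28 measures). For separate measures chance gives about 1 in 20, or 2.8. These measures overlap and were chosen with earlier results known, so their number cannot be set against chance. There were 12 such values, and 8 of them were in genetrap tumor 3. In that tumor *H2-DMb2* was 228 against 75.3 to 111 in the other genetrap tumors, *H2-Oa* was 54.5 against 3.84 to 8.40, *H2-Ob* was 201 against 21.9 to 46.2 and *H2-Eb2* was 40.2 against 1.17 to 6.21 (normalized counts). The ratio of *H2-Ob* to *H2-DMa* was 0.674 there against 0.0786 to 0.15. Its summed markers were 716 for B cells against 43.4 to 83.8, 616 for T cells against 156 to 206, and 574 for lymph node stroma against 67.8 to 196.

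In wildtype tumor 1 the *H2-Ob* to *H2-DMa* ratio was 0.291 against 0.0912 to 0.137 in the other wildtype tumors, and the B cell sum was 248 against 47.0 to 94.9. In genetrap tumor 2 the *Cd74* to *H2-Ab1* ratio was 1.37 against 2.50 to 2.78. In genetrap tumor 1 the fibroblast sum was 57154 against 26317 to 33657, and *Cd74* and *H2-Aa* were also highest there.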

How the results depend on the processing

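The fold changes of *H2-Aa*, *H2-Ab1*, *H2-DMb1*, *Cd74* and *Ciita* kept their direction in all 19 alternatives, and no gene of the table had an adjusted p under 0.05 in any of them. With 1 tumor left out, log2 fold changes ran from -0.24 to -0.02 for *H2-Aa*, from -0.38 to -0.13 for *Cd74*, from 0.07 to 0.29 for *Ciita*, from -0.18 to -0.001 for *H2-Ab1*, from -0.12 to -0.02 for *H2-DMb1*, from -0.158 to 0.014 for *H2-Eb1* and from -0.111 to 0.0617 for *H2-DMa*, and the 2 last crossed 0. *H2-Ab1* and *H2-DMb1* were nearest 0 without genetrap replicate 4. The unadjusted p of *Resf1* was at least 0.05 in 9 of 19 alternatives, and at most 0.0781. In a fit added after seeing the data, without genetrap replicate 3, *H2-Ob* was at -0.247 against 0.28. Unadjusted p was 0.0193 for *Cd74* without genetrap replicate 1 and 0.0426 for *Ciita* without genetrap replicate 5. Relative to *Ptprc*, differences ran from -0.27 to 0.0865 for *H2-Aa*, from -0.269 to 0.138 for *H2-Ab1*, from -0.265 to 0.169 for *H2-Eb1*, from -0.18 to 0.149 for *H2-DMa*, from -0.239 to 0.129 for *H2-DMb1* and from -0.40 to -0.06 for *Cd74*, each highest without genetrap replicate 3, and from 0.04 to 0.29 for *Ciita*. The number of genes at an unadjusted p under 0.05 was 479, 305 after division by column total and 308 to 692 with 1 tumor left out. The cause was not tested.

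Tumors with the same number are different animals and did not deviate together (correlations of deviations -0.16 to 0.15), so the number does not pair them. With the replicate block, 426 genes had an unadjusted p under 0.05, and the *Cd74* and *Ciita* fold changes were -0.24 and 0.17. Depth is unknown, so low genes such as *H2-Oa* and *H2-Eb2* cannot be given a counting error.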
